A study of Mus musculus with 16 samples.

Results

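The 10 genes *Aldoc*, *Aldoa*, *Hk2*, *Pfkfb3*, *Pgk1*, *Ldha*, *Slc2a1*, *Pdk1*, *Txnip* and *Arrdc4* cover glucose uptake, glycolysis, the entry of pyruvate into mitochondria and a pair of arrestin-domain genes that restrain uptake. They were taken by symbol from a count table of 55414 genes, where 11 entries matched, because *Aldoa* is listed under 2 gene identifiers. The second *Aldoa* entry (ENSMUSG00000114515) held 0 to 13 counts and was not tested, while each of the 10 genes was tested through its own entry, among 15693 tested genes. *Aldoc* was chosen by its measured difference between ligand-treated KO and Ctrl cells. That difference is given below as a description, from which nothing is concluded. The other members were chosen for their place in the pathway, but with earlier results of these data known.

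The libraries come from mouse lung endothelial cells (MLECs), cultured from 4 separate isolations of *Eng* fl/fl mice that also carry Rosa26-CreERT2 (Rosa26-CRE in the labels), a tamoxifen-activated recombinase expressed in nearly every cell type, and the Immorto transgene, which lets primary cells keep dividing in culture. Cells of each isolation were given 4-OH-tamoxifen to delete *Eng* (KO) or vehicle (Ctrl), serum-starved overnight and then treated for 90 min. Ctrl cells received PBS or sENG(M):BMP9, the complex of BMP9 with monomeric soluble endoglin, and KO cells received PBS or pro:BMP9, the complex with the BMP9 prodomain. The soluble endoglin was in large excess, which the study used to keep the complex stable. In Ctrl cells, effects of BMP9 and of excess soluble endoglin therefore cannot be told apart. Both ligands were dosed at 0.2 ng/ml, counted as growth factor domain, which gave 4 groups of 4 libraries, 16 in all. The form of the ligand and the genotype therefore changed together, as did tamoxifen and the genotype, and their parts cannot be told apart. BMP9 is a circulating ligand of the endothelial receptor ALK1, and endoglin, the product of *Eng*, is its co-receptor.

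Endothelial cells make most of their ATP by glycolysis. Glucose enters through GLUT1, encoded by *Slc2a1*, is trapped as glucose 6-phosphate by hexokinases such as *Hk2*, and is drawn down the pathway by phosphofructokinase, whose activator fructose 2,6-bisphosphate is made by *Pfkfb3*. Aldolases split the resulting sugar bisphosphate, *Pgk1* generates ATP further down, *Ldha* turns pyruvate into lactate, and *Pdk1* switches off pyruvate dehydrogenase. *Txnip* and *Arrdc4* encode related alpha-arrestins that lower glucose uptake. Their transcription is known to follow glucose metabolites through the factors MondoA and Mlx, which bind a carbohydrate response element made of 2 E-box-like motifs 5 bases apart.

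The bases before the start sites of *Txnip* and *Arrdc4* are printed because these genes moved with ligand. Those of *Ldha* are printed because it holds the full E-box CACGTG, as *Arrdc4* does, but did not pass the test. The spaced pair of *Txnip* is absent from *Ldha*. Each line gives the 250 bases before the start of the main GENCODE transcript in GRCm39, read in the direction of the gene, with every E-box-like motif (CACGNG, or CNCGTG on the other strand) in capitals.
*Txnip*, chr3:96465017-96465266, plus strand: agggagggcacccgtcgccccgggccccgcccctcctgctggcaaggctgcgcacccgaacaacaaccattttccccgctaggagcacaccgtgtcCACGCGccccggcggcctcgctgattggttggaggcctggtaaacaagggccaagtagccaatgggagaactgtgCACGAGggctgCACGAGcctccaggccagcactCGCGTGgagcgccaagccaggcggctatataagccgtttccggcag
*Arrdc4*, chr7:68399000-68399249, minus strand: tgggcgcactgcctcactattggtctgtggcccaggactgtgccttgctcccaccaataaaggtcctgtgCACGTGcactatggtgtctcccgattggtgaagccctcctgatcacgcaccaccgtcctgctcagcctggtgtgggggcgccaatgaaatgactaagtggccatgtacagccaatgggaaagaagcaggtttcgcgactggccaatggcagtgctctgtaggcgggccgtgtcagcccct
*Ldha*, chr7:46495013-46495262, plus strand: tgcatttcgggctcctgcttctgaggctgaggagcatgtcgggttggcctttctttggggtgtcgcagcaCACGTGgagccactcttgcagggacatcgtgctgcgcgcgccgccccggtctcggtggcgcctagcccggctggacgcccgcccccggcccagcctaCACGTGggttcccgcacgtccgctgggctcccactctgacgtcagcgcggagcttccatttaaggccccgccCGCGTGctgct
Windows of 250 bases before and 50 after the start were searched on both strands. That of *Txnip* held 4 E-box-like motifs, at -154, -79, -68 and -46 from the start, and the middle pair is spaced 5 bases apart. The paired pattern was found in 10 of the 13133 promoters of tested genes, or 0.0761%. *Arrdc4* had a single E-box-like motif, the full E-box CACGTG, at -180 within a window that lacked the pair. *Ldha* had full E-boxes at -180 and -83 and an E-box-like motif at -11. A full E-box occurs in 9.91% and an E-box-like motif in 37.9% of promoters of tested genes, so single matches are common. No E-box-like motif was found in the windows of *Aldoc*, *Aldoa*, *Hk2*, *Slc2a1* or *Pdk1*, and *Pfkfb3* and *Pgk1* had 1 each. The core letters of the hypoxia response element (ACGTG, or CACGT on the other strand, which overlap within a full E-box) matched 5 times in *Ldha*, 2 times in each of *Pgk1*, *Hk2* and *Arrdc4*, once in *Aldoa* and *Slc2a1*, and not in the other 4 windows. They are present in 25.5% of promoters of tested genes. A match is a description of the letters, not evidence of binding.

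Library totals lay between 14869115 and 17242117 counts. *Eng* was 11.3% of its Ctrl level in PBS-treated KO cells (log2 fold change -3.15, standard error 0.108) and 18.9% in ligand-treated KO cells (-2.40, standard error 0.102). Within KO cells it was 2.35-fold higher with pro:BMP9 than with PBS (edgeR adjusted p = 2.80e-07). All 10 endothelial markers exceeded 3 counts in every library. Fibroblast and mural markers were also present, with a summed level of 98.5 to 814 CPM (counts scaled to library size), and group medians of 699 and 713 in Ctrl cells against 509 and 518 in KO cells. The epithelial marker *Sftpc* had 0 counts throughout, while the summed CPM of the epithelial list lay between 62.7 and 231 and that of the leukocyte list between 34.3 and 49.9. In such bulk cultures, fewer cells of a type and less RNA per cell cannot be told apart.

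The 10 genes spanned a wide range of levels. To compare genes, CPM were divided by gene length in kilobases. The multi-mapping setting of the counting is not given, so levels of *Aldoa*, *Pgk1* and *Ldha*, which have near-identical copies in the genome, may be off. This was not tested. In Ctrl PBS cells, the housekeeping aldolase *Aldoa* was highest, at 288 ± 30.1 CPM per kb (SD, n = 4), followed by *Pgk1* at 216 ± 28.6. *Txnip* came next at 126 ± 25.0 and overlapped with *Ldha* at 111 ± 11.9. *Pfkfb3* (39.1 ± 11.4) and *Slc2a1* (34.3 ± 1.88) overlapped as well. Lower down stood *Arrdc4* at 15.6 ± 2.12, *Hk2* at 8.93 ± 0.720 and *Pdk1* at 2.49 ± 0.438. *Aldoc*, the aldolase known best from brain, was lowest at 0.655 ± 0.324 CPM per kb. Apart from the overlapping pairs *Txnip* with *Ldha* and *Pfkfb3* with *Slc2a1*, neighbours in this order did not overlap between libraries.

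**Figure D1:**
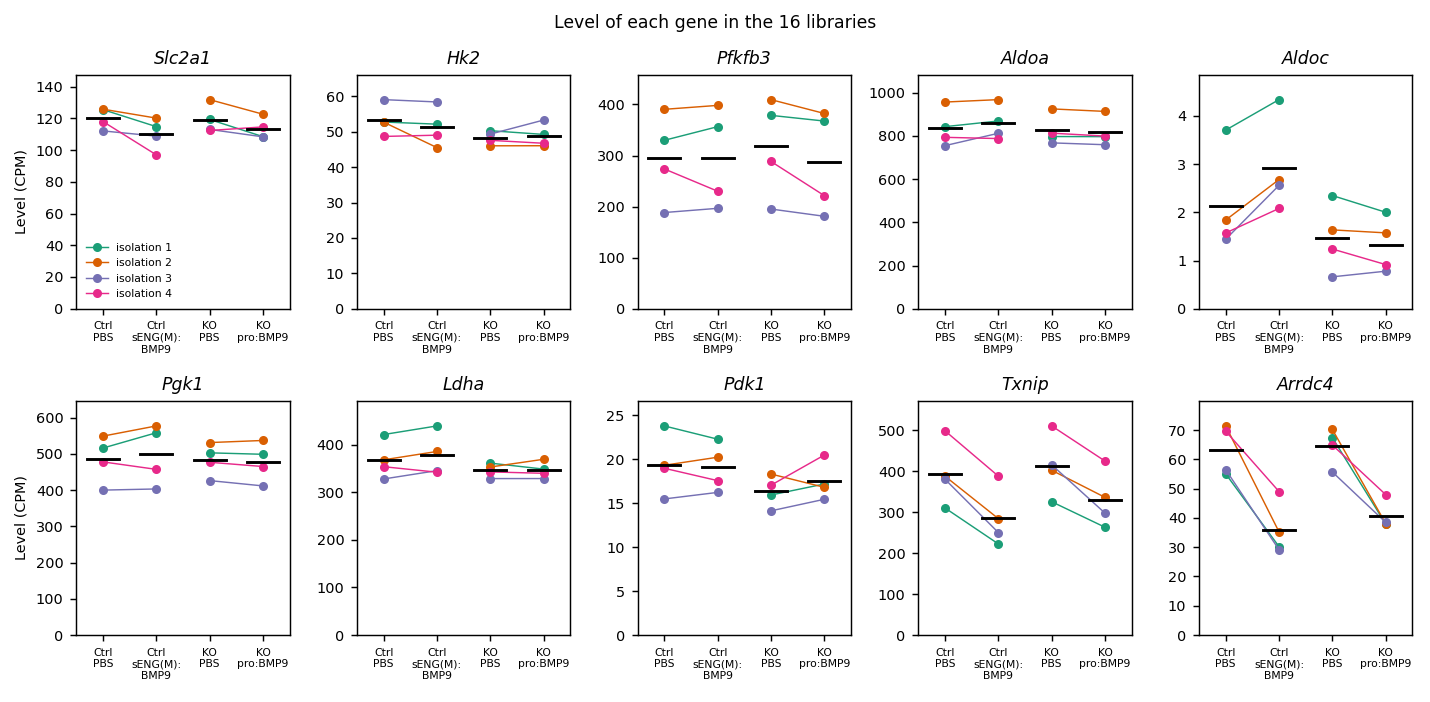
Level of each of the 10 genes in CPM (vertical axis, from 0) in the 4 groups (horizontal axis). Each point is 1 library, colours mark the 4 isolations, thin lines join PBS and ligand within an isolation, and black bars are group means. *Arrdc4* and *Txnip* fall along every line, and *Aldoc* lies at 0.661 to 4.34 CPM.

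The first question was which of these genes respond to the ligand treatment within 90 min. In Ctrl cells, sENG(M):BMP9 lowered *Arrdc4* to 56.5% and *Txnip* to 72.1% of the PBS level, and pro:BMP9 in KO cells lowered them to 62.7% and 79.6%. These were the only members called in either comparison (2 of 10 in each, both lower). Among all tested genes, 9.69% were called in Ctrl cells, 3.83% as lower, and 5.59% in KO cells, 1.92% as lower. Here and below a gene is called when its adjusted p over all tested genes is under 0.05 in edgeR's quasi-likelihood test, in which isolation is a block.

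*Arrdc4* encodes an alpha-arrestin that promotes internalisation of glucose transporters. Its counts in isolations 1 to 4 were 847, 1087, 941 and 1152 in Ctrl PBS cells and 508, 526, 501 and 848 with sENG(M):BMP9. In KO cells they were 1062, 1073, 926 and 1100 with PBS and 549, 605, 593 and 733 with pro:BMP9. Every ligand-treated library lay below every PBS-treated one, at 29.1 to 49.0 CPM against 55.0 to 71.4. Lower levels without overlap were found for 1.5% of tested genes in Ctrl cells, 0.848% in KO cells and 0.21% when both were pooled. The log2 fold change was -0.82 (standard error 0.0908, edgeR adjusted p = 3.46e-06) in Ctrl cells and -0.67 (standard error 0.0902, edgeR adjusted p = 5.81e-05) in KO cells. Isolation 4 showed the smallest fall in both genotypes, with log2 changes of -0.51 and -0.44. Without the isolation block, edgeR gave an adjusted p of 0.0152 in Ctrl cells and 0.0975 in KO cells, so the second call depended on the block.

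*Txnip* encodes thioredoxin-interacting protein, which binds GLUT1 and thioredoxin. Its counts were 4778, 5910, 6346 and 8261 in Ctrl PBS cells and 3748, 4248, 4307 and 6722 with sENG(M):BMP9. KO cells had 5134, 6157, 6919 and 8665 with PBS and 3818, 5346, 4592 and 6500 with pro:BMP9. The ligand-treated library was lower in each of the 8 pairs, but the groups overlapped because isolations differed, with isolation 1 lowest and isolation 4 highest in all groups. The log2 fold change was -0.47 (standard error 0.0428, edgeR adjusted p = 3.00e-07) in Ctrl cells and -0.33 (standard error 0.0426, edgeR adjusted p = 3.96e-05) in KO cells. Without the block, the adjusted p rose to 0.701 and 1.00. A long non-coding RNA on the opposite strand of *Txnip*, *Gm15441*, had 63 to 226 counts per library and a mean log2 response of -0.52 (standard error 0.110, edgeR adjusted p = 0.00275). The libraries were stranded, but the strand setting of the counting is not given in the sources used here, so reads of the overlapping pair may be shared, and this was not tested.

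Averaged over both genotypes, the log2 response was -0.75 for *Arrdc4* (95% interval -0.88 to -0.61, edgeR adjusted p = 7.27e-08) and -0.40 for *Txnip* (-0.46 to -0.34, edgeR adjusted p = 1.36e-08). This mean response does not use the KO minus Ctrl difference for which *Aldoc* was chosen. Again 2 of 10 members were called, against 13.1% of all tested genes, 5.65% as lower, and the median response was -0.0073 over the 10 members and -0.0031 over all tested genes. Without the block, the mean response had an adjusted p of 0.00119 for *Arrdc4* and 0.301 for *Txnip*. Some cell type markers also moved with ligand in the mean response. *Kdr* (0.84) and *Pecam1* (0.085) were higher and *Cldn5* (-0.19) and *Icam2* (-0.13) lower among endothelial markers, and the fibroblast marker *Pdgfra* (0.25) and the epithelial marker *Krt18* (0.15) were higher, with edgeR adjusted p between 3.24e-06 and 0.0178. Their part in the responses was not tested.

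None of the other 8 members passed the test in either ligand comparison or in the mean response. *Slc2a1* came closest, with a mean response of -0.10 (95% interval -0.17 to -0.030, edgeR adjusted p = 0.0536) and a lower mean in all 4 isolations. Its levels were 120 ± 6.58 and 110 ± 9.93 CPM (SD, n = 4) in Ctrl cells with PBS and ligand, and 119 ± 9.02 and 114 ± 6.73 CPM in KO cells. When the steps named in the study's methods were followed with isolation as the batch, DESeq2 gave *Slc2a1* an adjusted p of 0.00132 for the mean response. That fit had no block after ComBat, so its p-values do not count the removal of batch differences and can be too small. In Ctrl cells alone, the fall of *Slc2a1* was past the threshold in 1 alternative.

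*Pfkfb3*, the activator of phosphofructokinase, gave a log2 fold change of -0.16 in KO cells (95% interval -0.28 to -0.037, edgeR adjusted p = 0.155), lower in 4 of 4 isolations. In Ctrl cells the value was -0.012 (-0.13 to 0.11), with 3 of 4 isolations higher. The mean response, -0.084 in the main fit, was past the threshold in 1 alternative. The KO value was past the threshold in 3 alternatives, with adjusted p of 0.00494 without the filter on low counts, 0.0434 with only the 2 KO groups in the fit and 0.00771 with the study's steps.

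For the abundant enzymes, the mean response had narrow intervals around 0. They ran from -0.036 to 0.060 for *Aldoa*, from -0.050 to 0.064 for *Pgk1*, from -0.049 to 0.090 for *Ldha* and from -0.094 to 0.052 for *Hk2*. *Pdk1*, with 235 to 375 counts per library, had a wider interval of -0.10 to 0.18. *Aldoa* stayed at group means of 817 to 860 CPM, *Pgk1* at 478 to 499, *Ldha* at 347 to 378, *Hk2* at 48.3 to 53.3 and *Pdk1* at 16.4 to 19.4. *Aldoa* overlaps *Gm57854* on its own strand and *Tlcd3b* on the other, and *Tlcd3b* gave a mean response of -0.020 (edgeR adjusted p = 0.876).

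**Figure D2:**
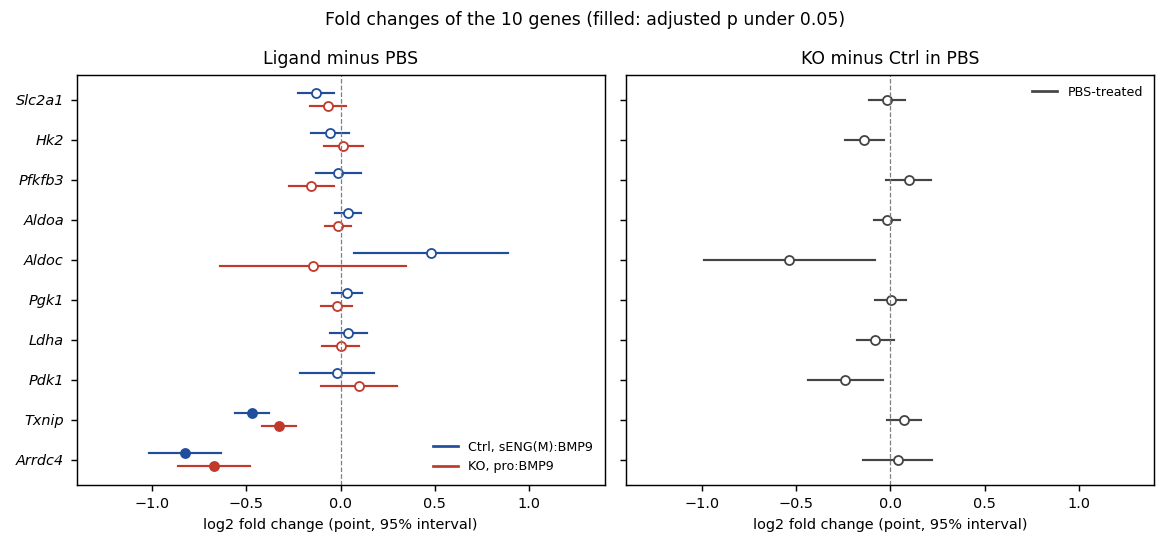
Log2 fold changes (horizontal axis) of the 10 genes with 95% intervals from edgeR, for ligand minus PBS in Ctrl and KO cells (left) and for KO minus Ctrl in PBS (right). Filled points have an adjusted p under 0.05: *Txnip* and *Arrdc4* in both ligand comparisons, and none on the right.

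*Aldoc* encodes aldolase C. It had 57, 28, 24 and 26 counts in Ctrl PBS cells and 73, 40, 44 and 36 with sENG(M):BMP9. In KO cells it had 37, 25, 11 and 21 counts with PBS and 29, 25, 12 and 14 with pro:BMP9. Isolation 1 was highest in every group, and counting error alone was large: the 95% Poisson interval of the lowest count, 11, ran from 5.49 to 19.7. Intervals of this kind cover counting error only. With ligand *Aldoc* was higher in 4 of 4 isolations of Ctrl cells, at a log2 fold change of 0.48 (95% interval 0.070 to 0.89), which did not pass the test (edgeR adjusted p = 0.158). In KO cells it was lower in 3 of 4, at -0.15 (-0.64 to 0.34, edgeR adjusted p = 0.906). *Aldoc* made up 0.0767% to 0.443% of the summed length-corrected level of *Aldoa* and *Aldoc*.

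Loss of *Eng* without ligand was examined in the PBS-treated libraries, which the choice of *Aldoc* did not use, although they come from the same isolations. Here 0 of 10 members were called by edgeR, against 0.0191% of all tested genes, and DESeq2 also called 0. Of all 15693 tested genes, 1071 had an unadjusted p under 0.05 by edgeR. Among the members 3 did, *Hk2*, *Pdk1* and *Aldoc*, each lower in KO cells in 4 of 4 isolations. Their log2 differences were -0.14 (95% interval -0.24 to -0.037) for *Hk2*, -0.24 (-0.44 to -0.040) for *Pdk1* and -0.54 (-0.99 to -0.083) for *Aldoc*, with edgeR adjusted p of 0.554, 0.638 and 0.643. Differences in *Aldoa*, *Pgk1* and *Slc2a1* lay between -0.018 and 0.0012. *Txnip* differed by 0.072 (-0.017 to 0.16) and *Arrdc4* by 0.038 (-0.15 to 0.22). The fibroblast marker *Dcn* was lower in these KO cells, with a log2 difference of -0.61 (edgeR adjusted p = 0.0160), and the part of the fibroblast content in the values above was not tested.

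With ligand, *Aldoc* stood at 1.32 ± 0.573 CPM in KO cells against 2.91 ± 0.984 in Ctrl cells (SD, n = 4), the values by which it was chosen. The log2 difference was -1.16, and isolations ranged from -1.57 to -0.72. For *Txnip* the difference was 0.21, higher in KO cells in 4 of 4 isolations, and for *Arrdc4* 0.19, higher in 3 of 4. The values of the other 7 members lay between -0.12 and 0.045. In this contrast 2 of 10 members and 0.255% of all tested genes had an adjusted p under 0.05, and since the rule used it nothing is read from that count. *Dcn* and *Pdgfrb* differed by -0.61 and -0.29 between the same libraries, and their part in these values was not tested.

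The ligand responses of KO and Ctrl cells were compared directly as an interaction, which shares the ligand-treated libraries with the contrast above. By edgeR, 0 of 10 members were called, against 0% of all tested genes, and DESeq2 also called 0. An unadjusted p under 0.05 was given by edgeR for 1 member, *Txnip*, and for 565 of the 15693 tested genes. The KO response of *Txnip* was less negative by 0.14 (95% interval 0.016 to 0.27, edgeR adjusted p = 0.9996), in 4 of 4 isolations. *Arrdc4* differed by 0.15 (-0.12 to 0.42), in the same direction in 4 of 4 isolations. For *Aldoc* the difference was -0.63 (-1.27 to 0.014), lower in 4 of 4 isolations. The intervals of *Arrdc4* and *Aldoc* both include 0. Since 0 of 10 members were called, a difference of response was not detectable for any member, *Txnip* included. This does not show that the responses are alike.

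The surroundings of the 10 genes in glucose metabolism were described with 8 lists holding 121 other genes, of which 101 were tested. In the mean ligand response 18 of the 101 were called, 8 higher and 10 lower, or 17.8% against 13.1% of all tested genes (7.46% higher and 5.65% lower), and their median response was -0.0063. Of 19 tested glycolytic enzymes, 2 were called, or 10.5%, the neuronal enolase *Eno2* at -0.19 (edgeR adjusted p = 0.0230) and platelet phosphofructokinase *Pfkp* at -0.12 (edgeR adjusted p = 0.0402). Neither was called within Ctrl or KO cells alone. Among 11 tested glucose and lactate transporters 0 were called by edgeR in any comparison. In the mean response 2 of them had an unadjusted p under 0.05 by edgeR, against 3558 of the 15693 tested genes.

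Of 14 genes that govern the entry of pyruvate into mitochondria, 2 were called, or 14.3%, a share near the 13.1% of all tested genes. Both act on pyruvate dehydrogenase. *Pdk4*, a kinase that inactivates the complex, rose from 31.9 ± 5.61 to 67.9 ± 15.5 CPM in Ctrl cells and from 28.9 ± 4.27 to 62.2 ± 10.1 CPM in KO cells (SD, n = 4). Its mean log2 response was 1.09 (standard error 0.0603, edgeR adjusted p = 1.62e-10). *Pdp1*, a phosphatase that reactivates the complex, fell from 30.5 ± 2.26 to 16.4 ± 1.49 CPM in Ctrl cells and from 29.4 ± 3.68 to 18.8 ± 2.09 CPM in KO cells. Its mean response was -0.77 (standard error 0.0591, edgeR adjusted p = 1.71e-08). For both genes every ligand-treated library stood apart from every PBS-treated one, a separation in either direction that 1.26% of tested genes showed. The member *Pdk1*, of the same kinase family, gave a mean response of 0.038 (standard error 0.0668).

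The list of other arrestins and glucose sensors had 9 tested genes, of which 2 were called, both lower. This is 22.2%, against 13.1% of all tested genes and 5.65% as lower. *Arrdc3* gave -0.33 (edgeR adjusted p = 7.13e-06) and *Arrdc2* -0.26 (edgeR adjusted p = 0.00243). Both are alpha-arrestins, related to *Txnip* and *Arrdc4*, and every one of the 4 isolations had a lower mean for each. Another arrestin-domain gene of the list, *Arrdc1*, was not called. Its means with PBS and ligand were 22.6 and 21.6 CPM in Ctrl cells, and 24.0 and 23.3 CPM in KO cells. The arrestins *Arrb1* and *Arrb2* were not called either. *Mlxip*, which encodes MondoA, gave -0.0063 (edgeR adjusted p = 0.966) and its partner *Mlx* gave -0.11 (edgeR adjusted p = 0.317), and its paralogue *Mlxipl* had at most 8 counts.

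The list of hypoxia targets had 8 of 18 genes called, 5 higher and 3 lower, or 44.4% against 13.1% of all tested genes (7.46% higher and 5.65% lower). Called as higher were *Bhlhe40*, a transcriptional repressor, at 0.81, the angiogenic factor *Vegfa* at 0.70, the mTORC1 inhibitor *Ddit4* at 0.52, the MYC antagonist *Mxi1* at 0.30 and the collagen hydroxylase *P4ha2* at 0.14. Called as lower were the vasoactive peptide *Adm* at -0.70, *Ankrd37* at -0.69 and *Ndrg1* at -0.27. Among the factors themselves, *Epas1*, encoding HIF-2alpha, had a mean response of 0.13 (edgeR adjusted p = 0.00214) and *Vhl*, which targets HIF for degradation, -0.23 (edgeR adjusted p = 0.00674), while *Hif1a* gave 0.017 (standard error 0.0301). *Ldha*, *Pgk1*, *Slc2a1*, *Pdk1* and *Aldoa*, which are textbook hypoxia targets as well, are given above. As members they are left out of this list, and none of them was called in the mean response. The list was also drawn up with earlier results of these data known, so nothing is concluded from its share.

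In the side branches of glucose metabolism, 2 of 18 genes were called, or 11.1%, below the 13.1% of all tested genes. These encode the paired enzymes that open the hexosamine pathway, *Gfpt2* higher at 0.40 (edgeR adjusted p = 4.68e-07) and *Gfpt1* lower at -0.11 (edgeR adjusted p = 0.0292). Of 2 tested gluconeogenic genes 0 were called by edgeR, and 0 had an unadjusted p under 0.05. Between KO and Ctrl cells, 0 of the 101 genes were called by edgeR in PBS or for the difference of responses. In these comparisons 10 and 4 of them had an unadjusted p under 0.05 by edgeR, against 1071 and 565 of the 15693 tested genes.

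**Figure D3:**
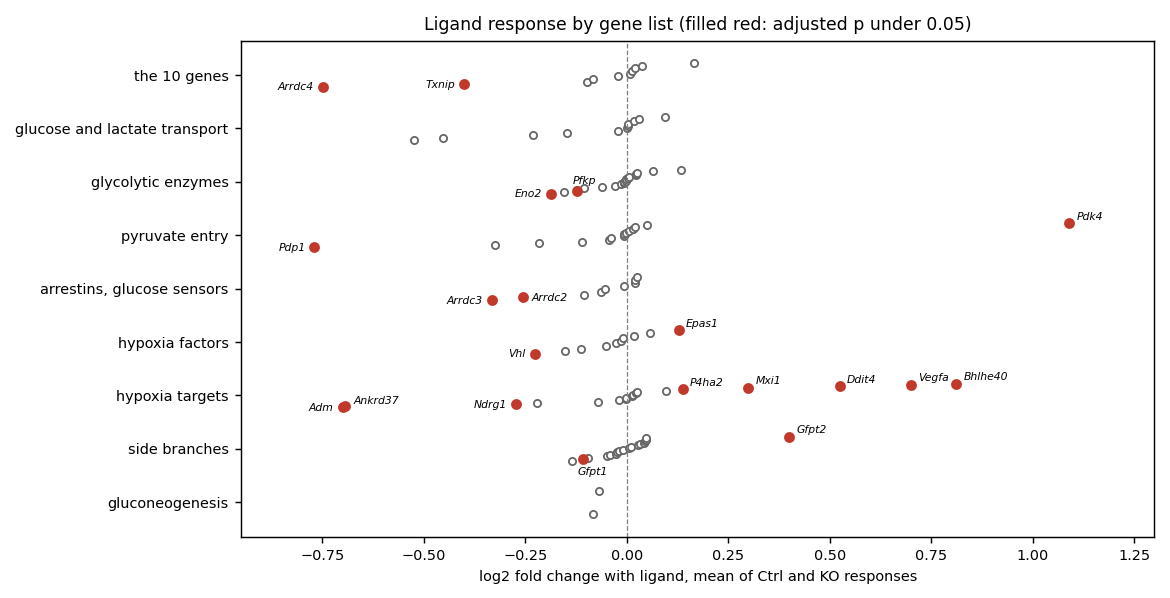
Mean log2 response to ligand (horizontal axis) of the 10 genes and of the tested genes of the 8 lists (vertical axis). Each point is 1 gene, spread vertically in order of its value, and red points with names have an edgeR adjusted p under 0.05. *Pdk4* at 1.09 lies farthest to the right and *Pdp1* at -0.77 farthest to the left.

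The share of variation that fell to the isolation differed widely among the members. It held 95.2% of the variance of log2 CPM for *Pfkfb3*, 92.5% for *Pgk1* and 88.3% for *Aldoa*, against a median of 63.8% over all tested genes. The other 7 members lay below that median, at 12.8% to 57.6%. *Pfkfb3* averaged 190 CPM in isolation 3 and 395 CPM in isolation 2, a 2.08-fold range. For *Arrdc4*, ligand held 76.5% and isolation 12.8%, and for *Txnip* ligand held 35.5% and isolation 56.8%, while ligand held a median of 2.30% over all tested genes. Genotype held 37.1% for *Aldoc*, 21.7% for *Hk2*, 20.4% for *Pdk1* and 18.0% for *Ldha*, with a median of 1.35% over all tested genes. These shares are descriptions, and the share of *Aldoc* rests partly on the contrast for which it was chosen.

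**Figure D4:**
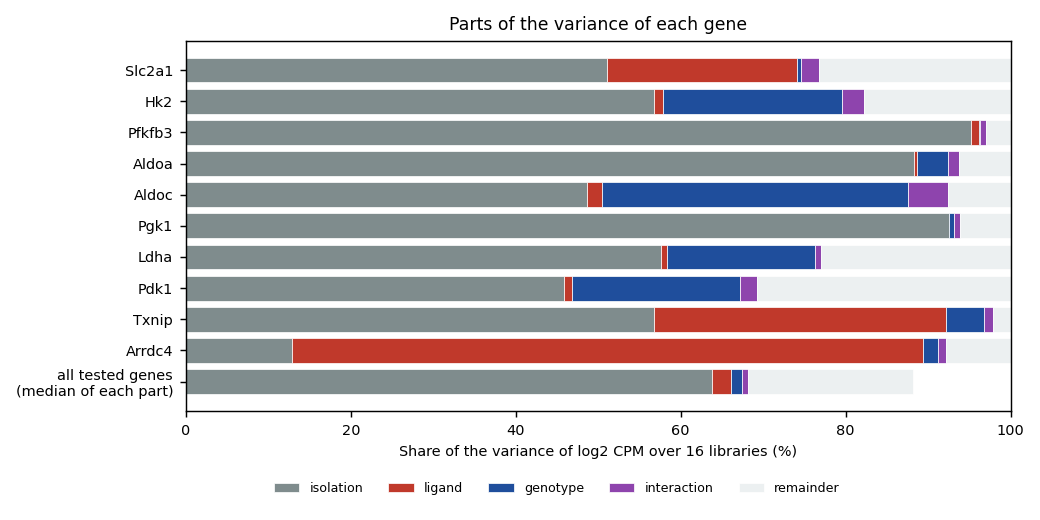
Share of the variance of log2 CPM over the 16 libraries (horizontal axis, %) that falls to isolation, ligand, genotype, their interaction and the remainder, for each gene and as the median of each part over all tested genes. *Arrdc4* is the one member with its largest part in ligand, at 76.5%.

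The genes most like *Aldoc* and *Txnip* were found by Pearson correlation of log2 CPM over the 16 libraries after removal of isolation means. All points share the 4 groups and the library normalisation, so the values are descriptive. They also include the ligand-treated libraries by whose difference *Aldoc* was chosen, so its likeness to other genes rests partly on that contrast. *Aldoc* was most like *Fads1* (r = 0.915) and *Fads2* (r = 0.892), which encode fatty acid desaturases, *Utp14b* (r = 0.884), the lipoprotein receptor *Lrp8* (r = 0.882) and cytosolic isocitrate dehydrogenase *Idh1* (r = 0.881). Among the members, *Aldoa* came closest to *Aldoc*, with r = 0.652 at place 261. *Txnip* was most like the kinase *Snrk* (r = 0.978), *Nipal1* (r = 0.971), *Ttpal* (r = 0.969), the deubiquitinase *Otud1* (r = 0.969) and the transcription factor *Creb5* (r = 0.968). *Arrdc4* followed *Txnip* with r = 0.933, at place 59.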

How the data were processed

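RNA sequencing of 16 MLEC libraries was analysed from the raw counts of reads per gene that the authors deposited without normalisation. The submitters' processing notes name HISAT2 2.0.5, featureCounts 1.5.0-p3 and DESeq2 1.26.0, with the GRCm39 build; strand and multi-mapping settings of the counting are not given in the sources used here, so *Aldoa*, *Pgk1* and *Ldha*, which have near-identical copies in the genome, may share reads with them.

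Libraries were grouped by their labels. The members and the gene lists were chosen with earlier results of these data known. Named genes were the 10 members, *Eng*, up to 15 list genes with the smallest p among those called in the mean ligand response, any list gene called between KO and Ctrl cells, and the 5 genes most correlated with *Aldoc* and with *Txnip*. *Eno2*, *Pfkp*, *Gfpt1*, *Mlxip*, *Mlx*, *Mlxipl*, *Hif1a*, *Arrdc1*, *Arrb1*, *Arrb2*, *Gm15441*, *Gm57854* and *Tlcd3b* were added after their values were seen. So were the markers *Sftpc*, *Dcn*, *Pdgfrb*, *Kdr*, *Pecam1*, *Cldn5*, *Icam2*, *Pdgfra* and *Krt18*.

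Counts were filtered with filterByExpr (minimum count 10, total 15), normalised by TMM and fitted over all 16 libraries with the quasi-likelihood test of edgeR 4.0.16 in R 4.3.3, two-sided, with isolation as a block and Benjamini-Hochberg adjustment over 15693 genes. The block was chosen here because each isolation gave all 4 groups; the study instead ran ComBat after quantile normalisation, with a batch variable that its text leaves unnamed. The replicate numbers pair the libraries, since each number is 1 mouse isolation. Deviations from the group means correlated by 0.757 on average for libraries of the same number (24 pairs, lowest 0.67). For different numbers the mean was -0.251. Subtracting the group means forces that value below 0, so nothing is read from it. No libraries were duplicates. P-values rest on how far the differences between groups varied from isolation to isolation, pooled over all 16 libraries. In edgeR, the spread of each gene is also drawn towards a trend over all tested genes. Part of the precision is therefore borrowed from other genes. Differences in level between isolations were taken out by the block. The procedure was tested on simulated data.

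The alternatives tried were RLE size factors, DESeq2 1.42.0, leaving out the block, no filter, fitting only the 2 groups compared, each isolation left out, and quantile normalisation with ComBat (sva 3.50.0) before DESeq2. The last, called the study's steps, took isolation as the batch, which is a choice made here. Its DESeq2 fit had no block, so its p-values can be too small. Promoters were read from GRCm39 with GENCODE starts.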

Additional observations from a re-analysis of the deposited data

Results flagged for a closer look

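Over the 10 members and 4 groups, 40 sets of 4 libraries were examined for a library far from the others, and chance gives about 1 in 20. One was found: *Arrdc4* in KO cells with pro:BMP9 stood at 47.9 CPM in isolation 4, while the nearest library was at 38.5 CPM. Isolation 4 also had the highest *Arrdc4* level among Ctrl libraries with sENG(M):BMP9, at 49.0 CPM.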

How the results depend on the processing

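The falls of *Arrdc4* and *Txnip* were called in Ctrl cells, in KO cells and on average in every alternative except the fit without the isolation block, and kept their direction in all. Without the block, 1 member (*Arrdc4*) was called in Ctrl cells, 0 in KO cells, 1 (*Arrdc4*) on average and 0 between ligand-treated genotypes, and 6 of the other pathway genes; the cause was not tested. For the pairing by isolation, over all tested genes the fit without the block called 167 genes in Ctrl cells against 1521, 91 in KO cells against 878, 372 on average against 2056, and 1 between genotypes with ligand against 40. Between ligand-treated genotypes, the contrast that chose *Aldoc* and from which nothing is concluded, the count of 2 members was 1 (*Txnip*) with DESeq2, which gave *Aldoc* no adjusted p, 0 with the 2 groups alone, and 0 to 2 with an isolation left out. Leaving out an isolation kept 2 members in each ligand comparison and gave 14 to 18 of the other pathway genes.

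All-gene counts also moved elsewhere. Between ligand-treated genotypes they were 141 with DESeq2, 517 without the filter, 538 with the study's steps, and 6 to 175 with an isolation left out. In PBS they were 204 without the filter, 175 with the study's steps and 7 with DESeq2, against 3, and 1 without the block or with the 2 groups alone, and ranged from 1 to 69 with an isolation left out. For the difference of responses they were 52 without the filter and 14 with the study's steps, against 0. With an isolation left out, KO cells had 573 to 745 and Ctrl cells 1058 to 1392. The study's steps called 1407 genes in KO cells, 750 of them higher, against 577 of 878, 1110 of 2227 higher in Ctrl cells, against 920 of 1521, and 1344 of 2871 higher on average, against 1170 of 2056.

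Signs of log2 values near 0, none of them called, turned in several settings. For the KO response, *Ldha* was -0.0023 with DESeq2 and -0.0023 with RLE factors, -0.0016 with the 2 groups alone, -0.014 with the study's steps and -0.024 to 0.013 with an isolation left out, and *Hk2* was -0.0028 with the study's steps and -0.019 to 0.027 with an isolation left out. The study's steps gave -0.00085 for *Aldoa* in Ctrl cells, -0.017 for its mean response, -9.56e-05 for that of *Pgk1* and -0.013 for *Pgk1* between genotypes in PBS, which was -0.0043 without the block. With an isolation left out, the ranges were -0.047 to 0.0077 for *Pdk1* and -0.057 to 0.066 for *Pfkfb3* in Ctrl cells, -0.013 to 0.025 for *Pgk1* and -0.045 to 0.0044 for *Hk2* on average, and, between genotypes in PBS, -0.035 to 0.0015 for *Aldoa*, -0.043 to 0.0020 for *Slc2a1*, -0.050 to 0.081 for *Arrdc4* and -0.029 to 0.018 for *Pgk1*. *Slc2a1* ranged from -0.019 to 0.084 between genotypes with ligand and from -0.021 to 0.089 for the difference of responses.

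Depth limits *Aldoc* most, at 11 to 73 counts per library, and the other members had at least 235 counts in every library. Isolations are the replicates, so every comparison rests on 4 isolations, and ligand form, tamoxifen and genotype cannot be told apart.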
